A study of Bos taurus with 8 samples.

Results

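The plasminogen activation system was followed here through 5 genes, PLAU (ENSBTAG00000005947), PLAT (ENSBTAG00000001244), PLAUR (ENSBTAG00000013125), SERPINE2 (ENSBTAG00000008717) and SERPINF1 (ENSBTAG00000009705), selected by symbol from the 21880 genes of the count matrices. Each symbol matched 1 gene and all 5 were measured. Muscle-derived cells of Belgian Blue cattle were profiled by droplet-based single-cell RNA sequencing (10x Genomics), in which each captured transcript carries a unique molecular identifier (UMI), at 5 timepoints of a serum-free culture. Cells of the semitendinosus muscle were taken directly after collagenase digestion from 10 animals (Muscle) and after 72 h on fibronectin from 9 of them (P0). Muscle was unsorted, and P0 was taken as unsorted from the protocol, although its label names sorted cells as well. From P0 the cultures were carried on to passages 2, 5 and 8 (P2, P5 and P8) in 3 forms. Donors 5, 6 and 10 gave sorted satellite cell (SC) cultures on laminin, donors 4, 7 and 8 gave sorted fibro-adipogenic progenitor (FAP) cultures on collagen I, and donors 1, 2 and 9 stayed unsorted on fibronectin, so culture form and donor cannot be told apart. Calves and adults were mixed in each of these sets, the donors of all timepoints shared 1 library per timepoint, and timepoint and library cannot be told apart either.

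Plasminogen is a circulating zymogen that is cleaved to plasmin, a broad protease that dissolves fibrin and cuts matrix proteins around cells. The cleavage is made by 2 activators, urokinase (uPA, the product of PLAU) and tissue plasminogen activator (tPA, the product of PLAT), and the urokinase receptor (uPAR, PLAUR) holds urokinase at the cell surface. SERPINE2 (protease nexin-1) is a secreted serpin that inhibits urokinase, tPA and thrombin. SERPINF1 (pigment epithelium-derived factor, PEDF) is a secreted serpin without protease inhibitor activity that is known for limiting the growth of blood vessels. In skeletal muscle the system is known for its part in matrix turnover during regeneration.

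The 5 libraries held between 2772 and 10405 cells each after the authors' quality control. Median depth was 4184 UMIs per cell in Muscle and 18340 to 27239.5 in the cultured libraries, and any pair of libraries shared 4 to 29 cell barcodes. Cell types were those assigned by the authors: FAPs, SCs, monocytes/macrophages, lymphocytes, vascular endothelial cells (VECs), lymphatic endothelial cells (LECs), a class of smooth muscle and mesenchymal cells (SMMCs), and rarer types. Each type expressed all markers of its own list, although the summed SC markers (MYF5, ITGA7, DES, NCAM1, PAX7) fell from a median of 1444 CPM in SCs of Muscle to 175 at P0, and the summed FAP markers (PDGFRA, DCN, LUM, COL1A1) in FAPs went from 26259 to 3987. Levels are given in CPM, a gene's UMIs divided by all UMIs of a pseudobulk on the usual CPM scale. A pseudobulk is the sum of 1 donor's cells of 1 type, with at least 10 cells, and the donor was the replicate. Lower levels can come from fewer transcripts of the gene or from more of the others. Muscle fibre transcripts, taken as a mark of RNA free in the suspension, reached 2660 CPM in a donor pseudobulk of Muscle (lymphocytes) and at most 7.3 at P0. The myocytes of Muscle, too few per donor for a pseudobulk, held more of them (ACTA1 at 29648 pooled CPM).

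In muscle, PLAU was carried by many mononuclear types. Among the types with pseudobulks of at least 4 donors, its mean level was highest in SCs, at 53.3, 227 and 434 CPM (lowest, median and highest of 10 donors), followed by FAPs at 78.4, 139.8 and 199.8. Monocytes/macrophages (122 ± 58.7, mean ± SD, n = 10), VECs (107 ± 38.5) and SMMCs (74.6 ± 39.9) came next. Each of these neighbours overlapped, and none differed from the next beyond the spread between donors in exact sign-flip tests within donors (2-sided, adjusted p over the 30 neighbour pairs of Muscle from 0.182 to 0.718). SCs exceeded FAPs in 7 of 10 donors (exact adjusted p = 0.199). Lymphocytes (29.8, mean of 10 donors) and LECs, in which 3 of 4 donors were at 0 and donor 7 was at 30.7, closed the order.

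PLAT was low in most types. Its means lay at 55.7 ± 19.7 CPM in FAPs, 53.4 ± 24.6 in SMMCs, 43.2 ± 33.9 in SCs and 39.4 ± 23.9 in VECs (SD, n = 10 each), and none of these neighbours differed in the exact tests (adjusted p from 0.693 to 0.920). Below them the level dropped to 4.78 in lymphocytes, lower than in VECs in 10 of 10 donors (exact adjusted p = 0.0117), and to 0.37 in monocytes/macrophages. Only 3 of 188 lymphocytes held a PLAT UMI. With pseudobulks thinned to 1 total, the type next above lymphocytes was SCs, higher in 6 of 10 donors, and that pair did not pass (exact adjusted p = 0.560). LECs had the highest mean, but their 4 donors ranged over 14.9 (donor 10), 76.8 (donor 7), 1139 (donor 8) and 1853 (donor 4). Over all LECs of Muscle, 3 of 81 cells held 84.5% of the 206 PLAT UMIs, and the pooled level without them was 76.9. The LEC level of muscle therefore rested on those 3 cells.

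Among the types with pseudobulks of at least 4 donors, PLAUR was highest in monocytes/macrophages in muscle. They stood at 189.6, 332 and 612 CPM (lowest, median and highest of 10 donors) and FAPs at 20.3, 34.3 and 96.1. Monocytes/macrophages were above FAPs, and FAPs above VECs (15.6 ± 16.0), in 10 of 10 donors each (exact adjusted p = 0.0117 for both). LECs, SCs, SMMCs and lymphocytes followed at means of 11.4, 5.66, 5.38 and 4.91. Neither SCs and SMMCs nor SMMCs and lymphocytes differed beyond the donor spread (exact adjusted p = 0.950 and 0.969). The pairs with LECs had 4 shared donors, where the smallest exact p is 0.125 before adjustment, so these pairs could not pass. Of the SCs in muscle, 2.13% ± 2.79 held a PLAUR UMI (mean ± SD of 10 donors), close to the 1.81% in lymphocytes, and 59.7% ± 13.4 of monocytes/macrophages did. The 51 neutrophils, pooled over 9 donors because only 1 donor had at least 10, held 375 PLAUR UMIs in 48 cells, or 3797 CPM (95% exact Poisson interval 3422 to 4201, counting error only), at a median depth of 1410 UMIs per cell.

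The serpins split by type. SERPINE2 lay at 158, 505 and 747 CPM in SCs of muscle (lowest, median and highest of 10 donors), at 195.7, 475 and 676 in SMMCs and at 107, 262 and 417 in FAPs. SCs and SMMCs did not differ (exact adjusted p = 0.886), and SMMCs exceeded FAPs in 8 of 10 donors without passing (exact adjusted p = 0.0732). VECs were low at 20.6 ± 21.6 and monocytes/macrophages lower still at 3.00 ± 3.99 (exact adjusted p = 0.0195, VECs higher in 9 of 10 donors). With pseudobulks thinned to 1 total, VECs were higher in 6 of 10 donors and the pair did not pass (exact adjusted p = 0.188). Among the types with pseudobulks of at least 4 donors, SERPINF1 was highest in FAPs in muscle, at 1132, 1596 and 2438 CPM, with the lowest value in donor 9 and the highest in donor 10. The next type, lymphocytes, had a mean of 46.4 and a median of 3.56, below FAPs in 10 of 10 donors (exact adjusted p = 0.0117). SCs, VECs, SMMCs, monocytes/macrophages and LECs followed at means of 36.2, 24.6, 14.9, 6.84 and 0. The 23 tenocytes, pooled over 6 donors, stood above the FAPs, with 463 UMIs in 22 cells or 3263 CPM (95% exact Poisson interval 2972 to 3574, counting error only) against 1873 in pooled FAPs. Because the types were assigned from the same expression values, these orders are not independent of the annotation.

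After 72 h in culture the order had changed for the activators and the receptor. At P0, among the 6 types with pseudobulks, the highest PLAU level was that of VECs, at 197.8, 350.3 and 446 CPM (lowest, median and highest of 9 donors), and the means of the other 5 types lay between 33.0 in SCs and 61.8 in LECs. For PLAT the means were 93.4 ± 16.6 in VECs (SD, n = 9) and 74.4 ± 39.7 in SMMCs, which did not differ (exact adjusted p = 0.300) and changed places with pseudobulks thinned to 1 total, and 20.3 to 59.1 in LECs, FAPs and SCs. The 48 pooled glial cells of P0 stood higher, at 213 CPM. PLAUR was at 413 ± 143 in monocytes/macrophages (n = 7) and 331 ± 50.02 in VECs (n = 9), and between 41.4 and 118 in the other types with pseudobulks. For SERPINE2, SMMCs (382), SCs (349) and FAPs (284) again lay above monocytes/macrophages (113), LECs (45.3) and VECs (43.9). SERPINF1 was again highest in FAPs, at 149 ± 34.7, with SCs next at 53.6 ± 11.9 and FAPs higher in 9 of 9 donors. No neighbour pair of P0 passed after adjustment over 25 exact tests, the smallest adjusted p being 0.0781, for 5 of the pairs. With 7 shared donors the smallest exact p is 0.0156 before adjustment.

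**Figure D1:**
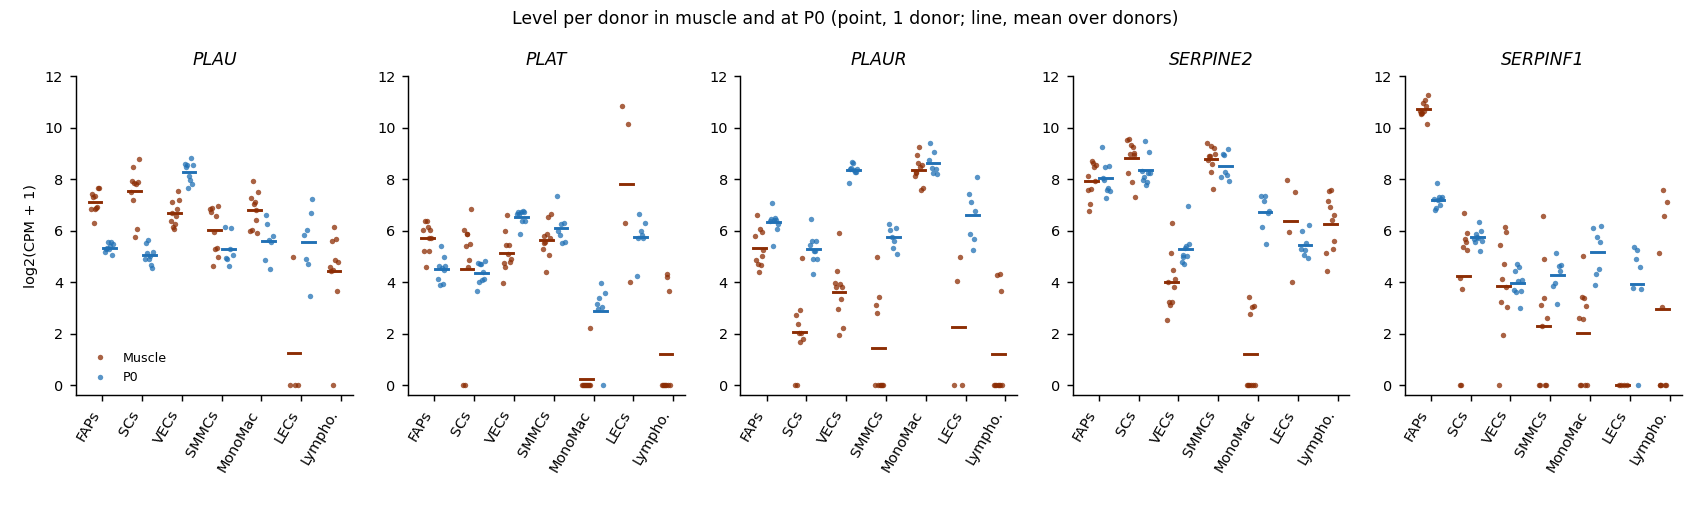
Level of each member, as log2(CPM + 1), in 7 cell types in Muscle (brown) and at P0 (blue), with 1 point per donor and a line at the mean of the log values. SERPINF1 in FAPs sits apart from the other types plotted in Muscle (1132 to 2438 CPM) and drops at P0 (110 to 228), while PLAUR in VECs moves from 2.83 to 58.4 up to 231 to 399.

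The move from muscle into culture was compared within each type. A gene was called where the adjusted p of edgeR's quasi-likelihood test over all genes tested was below 0.05 and the log2 fold change was beyond 1 in either direction. In FAPs 4 of the 5 members were called, where 43.4% of the 9208 genes tested were. PLAU stood at 78.4, 139.8 and 199.8 CPM in Muscle and at 32.4, 38.9 and 45.8 at P0. The groups did not overlap, all 9 donors seen at both times were lower at P0, and the log2 fold change was -1.74 ± 0.13 (SE, adjusted p = 1.14e-11). PLAT also fell in 9 of 9 donors, from 55.7 ± 19.7 to 23.0 ± 8.69 (log2 fold change -1.18 ± 0.24, adjusted p = 1.74e-04), with overlapping groups, but was not called without a filter for low counts (-0.91 ± 0.25, adjusted p = 0.00391). PLAUR went the other way, from 44.2 ± 24.3 to 82.3 ± 24.1, higher in 9 of 9 donors although the groups overlapped (log2 fold change 1.16 ± 0.23, adjusted p = 1.27e-04). With every pseudobulk thinned to 1 total, the PLAUR change was 0.69 ± 0.31 (adjusted p = 0.0476) and no longer called.

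SERPINF1 showed the largest change of the members in FAPs. From 1132, 1596 and 2438 CPM in Muscle it went to 110, 147 and 228 at P0, with no overlap (log2 fold change -3.42 ± 0.17, adjusted p = 2.03e-14, lower in 9 of 9 donors). The share of FAPs with a SERPINF1 UMI went with it, from 89.0% ± 4.85 to 22.9% ± 5.13 when cells were thinned to 2000 UMIs (unthinned 96.1% and 76.3%). The lowest share of any type with at least 2 donors in those libraries was 0% in LECs of Muscle and 3.09% in VECs at P0, both thinned. SERPINE2, the inhibitor of both activators, was 268 ± 112 in Muscle and 284 ± 140 at P0 (log2 fold change 0.16 ± 0.29, adjusted p = 0.604), higher at P0 in 4 of 9 donors. Donor 1 reached 601 at P0, against 153 to 364 in the other 8 donors.

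In SCs 3 of 5 members were called (34.3% of 5221 genes tested). PLAU went from 53.3, 227 and 434 CPM to 22.2, 31.0 and 48.6, without overlap and lower in 9 of 9 donors (log2 fold change -2.81 ± 0.31, adjusted p = 1.05e-07). PLAT was lower in 8 of 9 donors (43.2 ± 33.9 against 20.3 ± 5.76, log2 fold change -1.39 ± 0.32, adjusted p = 5.93e-04). PLAUR, barely detected in SCs of muscle, rose from 0, 3.08 and 29.4 to 18.9, 35.9 and 86.9, higher in 9 of 9 donors (log2 fold change 3.00 ± 0.49, adjusted p = 1.10e-05). Only 12 of 647 SCs of Muscle held a PLAUR UMI. The gene thus passed the filter through P0, and the size of its fold change is set against a level near 0. The thinned share of SCs with a PLAUR UMI was 0.75% ± 0.934 in Muscle and 7.07% ± 2.63 at P0 (unthinned 2.13% and 42.0%), and the P0 value was the lowest of the 6 types of that library. The SERPINF1 levels of SCs, 36.2 ± 31.1 and 53.6 ± 11.9, did not differ (log2 fold change 0.27 ± 0.30, adjusted p = 0.437), and neither did those of SERPINE2 (-0.50 ± 0.30, adjusted p = 0.138). The FAP marker transcripts in the SC pseudobulks rose over the same step, from a median of 131 to 1515 CPM, and their part in these SC values was not tested.

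In VECs, unlike in FAPs and SCs, both activators were higher at P0, and the receptor was higher as it was in both of those types. No test was run between VECs and SCs. Of the 4 members tested, 3 were called, among 35.1% of 5896 genes. PLAU was 65.0, 98.3 and 184 CPM in Muscle and 197.8, 350.3 and 446 at P0, without overlap (log2 fold change 1.58 ± 0.18, adjusted p = 3.87e-08, higher in 9 of 9 donors). PLAUR went from 2.83, 13 and 58.4 to 231, 332 and 399, also without overlap (log2 fold change 4.64 ± 0.27, adjusted p = 7.62e-13). Only 41 of 1166 VECs of Muscle held a PLAUR UMI. As in SCs, the gene passed the filter through P0, and the size of its fold change is set against a level near 0. The thinned share of VECs with a PLAUR UMI was 2.72% ± 2.27 in Muscle and 46.1% ± 5.61 at P0 (unthinned 4.21% and 88.2%), against 7.07% in SCs at P0. PLAT was higher in 9 of 9 donors (39.4 ± 23.9 against 93.4 ± 16.6, log2 fold change 1.35 ± 0.19, adjusted p = 5.00e-07). SERPINE2 was at 20.6 ± 21.6 and 43.9 ± 31.0 (0.96 ± 0.43, adjusted p = 0.0525) and lay at the threshold, being called by DESeq2 (1.05 ± 0.40, adjusted p = 0.0140), without a filter for low counts (1.18 ± 0.44, adjusted p = 0.0322) and with pseudobulks of at least 30 cells (1.03 ± 0.45, adjusted p = 0.0469). FAP markers in VECs moved alongside, from a median of 208 to 437 CPM, and their part was not tested. SERPINF1 did not pass the filter for low counts.

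The differences between these changes were tested as interaction terms. These fits held no donor term, so pseudobulks of the same donor entered as separate samples. Between FAPs and SCs 2 of 5 members were called (20.0% of 8751 genes). On the log2 scale the change of PLAUR was smaller in FAPs (difference -2.06 ± 0.64 in log2 units, adjusted p = 0.00946), and that of SERPINF1 was lower in FAPs (-3.90 ± 0.34, adjusted p = 1.53e-11). The PLAUR difference rests on a low level in SCs of Muscle. In CPM its means went from 44.2 to 82.3 in FAPs and from 5.66 to 41.4 in SCs. PLAU fell less in FAPs (0.85 ± 0.32, adjusted p = 0.0334, within 1 log2 unit, but 1.26 ± 0.45 and called with pseudobulks thinned to 1 total, adjusted p = 0.0264), and the changes of PLAT and SERPINE2 were not called (-0.00 ± 0.46, unadjusted p = 0.997, and 0.42 ± 0.41, adjusted p = 0.446). Between FAPs and VECs 4 of 5 members were called (25.6% of 8613 genes), with estimates of -3.40 ± 0.23 for PLAU, -3.56 ± 0.40 for PLAUR, -2.59 ± 0.33 for PLAT and -2.66 ± 0.43 for SERPINF1 (adjusted p from 1.73e-15 to 3.48e-06). The direction of change for PLAU and PLAT was thus opposite in the 2 types in every donor seen at both times. SERPINE2 gave -0.87 ± 0.55 (adjusted p = 0.196). The PLAUR difference between FAPs and VECs rests on a low level in VECs of Muscle, at a mean of 15.6 CPM. SERPINF1 had not passed the filter in VECs alone, where its means were 24.6 CPM in Muscle and 15.8 at P0. Its difference thus set the fall in FAPs against a low level in VECs (-0.60 ± 0.45 there in the fit without a filter).

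The 3 remaining types had shallower pseudobulks and fewer members passed the filter. In monocytes/macrophages 1 of 2 tested members was called (34.6% of 2896 genes). PLAU was lower at P0 in 7 of 7 donors (122 ± 58.7 against 52.9 ± 26.0, log2 fold change -1.42 ± 0.31, adjusted p = 3.42e-04), and PLAUR did not differ (349 ± 128 against 413 ± 143, 0.15 ± 0.22, adjusted p = 0.565). Neutrophil markers were at 0 to 2298 CPM in these pseudobulks in Muscle and at 1837 to 4803 at P0, with 2 of the 4 markers at 0 at P0, and their part in the PLAUR level was not tested. SERPINE2 did not pass the filter but went from 3.00 ± 3.99 to 113 ± 45.7, without overlap, and gave 4.57 ± 0.35 in the fit without a filter (adjusted p = 6.27e-37). FAP markers in monocytes/macrophages moved alongside, from 20.6 to 505 in Muscle to 1019 to 2078 at P0, and their part was not tested.

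In SMMCs none of the 3 tested members was called by edgeR (36.4% of 3454 genes were, and 2536 had an unadjusted p below 0.05), with PLAU closest at -0.98 ± 0.32 (74.6 ± 39.9 against 41.3 ± 18.8, adjusted p = 0.00981). PLAU was called with pseudobulks of at least 30 cells (-1.03 ± 0.40, adjusted p = 0.0387) and with library totals in place of TMM factors (-1.0002 ± 0.33, adjusted p = 0.0115). PLAUR did not pass the filter there, although the donors did not overlap (5.38 ± 9.67 against 54.2 ± 15.4), and it gave 3.62 ± 0.38 in the fit without a filter. FAP markers in SMMCs moved alongside, from a median of 359 to 1171 CPM, and their part was not tested. In LECs, with 4 donors in Muscle and 7 at P0, 3 of 3 tested members were called (29.6% of 3034 genes). PLAUR was 0, 0, 15.4 and 30.4 CPM in Muscle and 37.2 to 267 at P0 (3.28 ± 1.15, adjusted p = 0.0398). Only 6 of 81 LECs of Muscle held a PLAUR UMI, so PLAUR passed the filter through P0 and its fold change is set against a level near 0. PLAU and SERPINF1 did not pass the filter. In the edgeR fit without a filter PLAU gave 3.29 ± 0.72 (means 7.68 and 61.8 CPM, adjusted p = 1.18e-04). There SERPINF1 gave 4.93 ± 1.59 (means 0 and 21.9 CPM, adjusted p = 0.0159). PLAT gave -3.78 ± 0.87 (adjusted p = 0.00656), a value that rests on the 3 cells described above, and SERPINE2 gave -1.57 ± 0.46 (adjusted p = 0.00912) but 0.0586 with donor as a block. Without donor 1 or donor 9 no member passed the filter in LECs, without donor 2 SERPINE2 did not, without donor 4 none was called, and without donor 10 only PLAT was (-4.16, adjusted p = 0.00213). The PLAUR call was also lost without donor 7 (adjusted p = 0.0511) and without donor 8 (adjusted p = 0.0721). In the same LEC pseudobulks FAP markers went from a median of 42.1 to 412 CPM and LEC markers from 7002 to 1479, and their part was not tested.

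**Figure D2:**
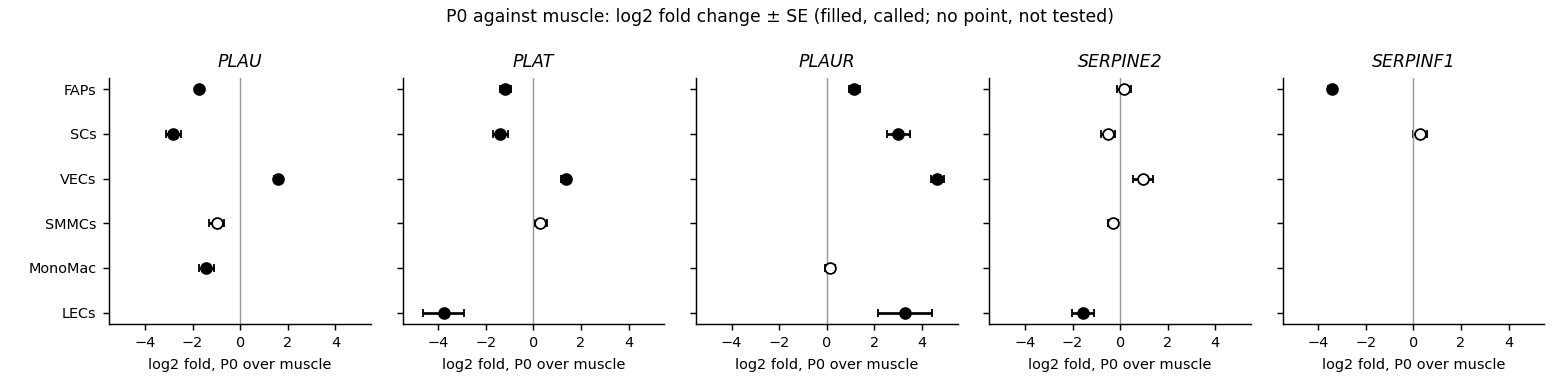
Log2 fold change of P0 over Muscle ± SE for each member in 6 cell types, with filled points for called changes, open points for the others and no point where the gene did not pass the filter. PLAU and PLAT lie left of 0 in FAPs (-1.74 and -1.18) and SCs (-2.81 and -1.39) and right of 0 in VECs (1.58 and 1.35), and PLAUR lies right of 0 in all 5 types tested.

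The wider plasmin system was read from a list of 30 further genes: plasminogen and its surface receptors, other serpins, clearance receptors and coagulation factors. The substrate itself was at or near 0. PLG was at 0 in every type of Muscle with a pseudobulk and in culture reached a mean of at most 0.559 CPM (SCs at P8, n = 4). In FAPs 17 of the 30 genes were tested at P0 against Muscle, 4 were higher and 6 lower, and the median log2 fold change of the list was -0.37 against 0.03 for all genes. The clearance receptor LRP1, which takes up serpin and protease complexes, fell by 1.85 on the log2 scale (± 0.12, from 203 to 51.2 CPM). MRC2, the collagen receptor that associates with uPAR, fell by 4.16 (± 0.20), SERPING1 (C1 inhibitor) by 3.88 (± 0.28), the thrombin receptor F2R by 3.38 (± 0.26), and IGF2R by 1.91, and the protease inhibitor A2M fell by 9.38 (± 0.38, from 1166 to 1.63 CPM). ENO1, a glycolytic enzyme that also binds plasminogen at the cell surface, rose (1.79 ± 0.09), as did the lipoprotein receptor VLDLR (2.34 ± 0.44).

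As a share of those tested, 58.8% of the list was called in FAPs, 53.8% in SCs, 38.5% in VECs, 58.3% in SMMCs, 33.3% in monocytes/macrophages and 63.6% in LECs, beside 43.4%, 34.3%, 35.1%, 36.4%, 34.6% and 29.6% of all genes. The shares in VECs and monocytes/macrophages were near those of all genes. In the types other than FAPs the list gave 5 genes higher and 2 lower of 13 tested in SCs (median 0.80 against -0.01 for all genes), 3 and 2 of 13 in VECs (0.19 against -0.02), and 4 and 3 of 12 in SMMCs (0.62 against 0.01). It gave 3 and 0 of 9 in monocytes/macrophages (0.97 against -0.03) and 3 and 4 of 11 in LECs (-0.16 against 0.06). ENO1 was higher in all 6 types. SERPINB2 (PAI-2), an inhibitor of urokinase, was at 0 in all 10 muscle donors of monocytes/macrophages and at 470 ± 273 (n = 7) at P0. MRC2 rose in SCs (1.32 ± 0.36), opposite to FAPs, and the difference between the 2 types was -5.69 ± 0.37 (adjusted p = 7.32e-15).

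**Figure D3:**
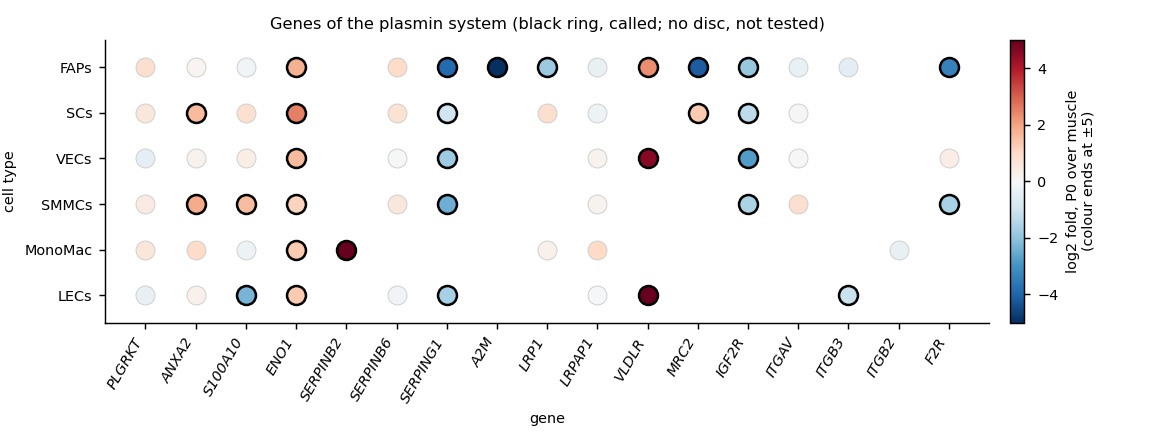
Log2 fold change of P0 over Muscle (colour, ending at 5 in each direction) for plasmin system genes that were tested, by cell type, with a black ring where the gene was called and no disc where it was not tested. ENO1 is ringed in all 6 types, and the fitted values of SERPINB2 in monocytes/macrophages and VLDLR in LECs are set against muscle donors that were all at 0.

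SCs and FAPs, the progenitors that the study expanded, were set against each other at each timepoint, with the same limit that the types were assigned from these values. In Muscle 1 of 4 tested members was called (19.9% of 4450 genes), SERPINF1 being lower in SCs by 5.42 ± 0.34 log2 units (estimate -5.42, adjusted p = 9.38e-12). PLAUR did not pass the filter there, but was lower in SCs in 10 of 10 donors (5.66 ± 8.61 against 44.2 ± 24.3) and gave -3.18 ± 0.38 in the fit without a filter (adjusted p = 2.41e-09). At P0, 2 of 5 were called (10.7% of 10827 genes), PLAUR (-1.07 ± 0.22, adjusted p = 5.22e-04) and SERPINF1 (-1.47 ± 0.15, adjusted p = 2.46e-07), both lower in SCs. At P2 only PLAUR was called (14.0% of 11471 genes), at 43.0 ± 18.4 in SCs and 100.9 ± 35.9 in FAPs (-1.24 ± 0.23, adjusted p = 3.36e-04), and SERPINF1 gave -1.04 ± 0.53 (adjusted p = 0.156). Within donors, SERPINF1 was higher in FAPs in 7 of 8 at P2 (exact sign-flip test, adjusted p = 0.0391 over 5 members), and it was called with donor as a block (-1.06 ± 0.25, adjusted p = 0.0118) and in the unsorted cultures alone (-1.58 ± 0.23, adjusted p = 0.00237).

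At P5, 4 of 5 members were called between SCs and FAPs (16.3% of 11390 genes). PLAT was the member higher in SCs. It stood at 39.0, 66.5 and 119 CPM in SCs (lowest, median and highest of 7 donors) and at 14.4, 24.4 and 35.9 in FAPs (9 donors), without overlap (1.36 ± 0.22, adjusted p = 1.09e-04). PLAUR (-1.52 ± 0.33), SERPINE2 (-1.10 ± 0.33) and SERPINF1 (-1.50 ± 0.39) were lower in SCs, each in 7 of 7 donors with both types (adjusted p from 0.00145 to 0.0159). The SERPINE2 call was lost with library totals in place of TMM factors (-0.97 ± 0.34, adjusted p = 0.0305). PLAU was lower in SCs in 7 of 7 donors as well, by less than 1 log2 unit (-0.62 ± 0.16, adjusted p = 0.00590). With pseudobulks thinned to 1 total, PLAU was lower in SCs in 3 of 7 donors (exact sign-flip test, adjusted p = 0.75) and PLAT higher in 5 of 7 (exact adjusted p = 0.117), while the other 3 members kept 7 of 7. In Muscle the SERPINE2 level had been higher in SCs in 8 of 10 donors, by less than 1 log2 unit (0.77 ± 0.28, adjusted p = 0.0283). At P8, with 4 SC pseudobulks of 12 to 54 cells, none was called by edgeR (6.69% of 10016 genes, 2687 with an unadjusted p below 0.05). PLAT gave 0.98 ± 0.27 (adjusted p = 0.0263) and was called when donor 1, 2, 8 or 9 was left out (1.03 to 1.26). PLAUR gave -0.94 ± 0.35 and was called with donor as a block (-1.24 ± 0.25, adjusted p = 0.00715) and without donor 2 (-1.05 ± 0.28, adjusted p = 0.0244).

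Between P0 and P2 the 2 serpins moved in opposite directions in both progenitor types, in cultures followed from the same donors. In FAPs of the sorted FAP and unsorted cultures 2 of 5 members were called (23.3% of 11439 genes). SERPINF1 was 135 ± 19.9 CPM at P0 (SD, n = 6, range 110 to 159) and 741 ± 261 at P2 (range 471 to 1182), without overlap (log2 fold change 2.62 ± 0.21, adjusted p = 2.82e-07). Over the same step and all donors, the summed FAP markers of FAPs went from a median of 3987 to 21088 CPM. Tenocyte markers went from 8.19 to 129.6, with FMOD going from 7.58 to 152 pooled CPM and COMP, the next highest, reaching 0.359. Smooth muscle and mesenchymal markers went from 43.2 to 580.3. The part of these markers in the SERPINF1 change was not tested. The P2 level of SERPINF1 remained under the 1132 to 2438 of muscle FAPs in 5 of the 6 donors. Donor 8, at 1182, was within that range but below its own muscle level of 1815, and the other donors were also below their own. SERPINE2 fell from 311 ± 155 to 131 ± 52.2, lower in 6 of 6 donors (-1.10 ± 0.33, adjusted p = 0.00987), but by 0.65 ± 0.32 and uncalled in the sorted cultures alone (adjusted p = 0.128). PLAU and PLAT rose in 6 of 6 donors each by less than 1 log2 unit (0.63 ± 0.09, adjusted p = 3.03e-05, and 0.86 ± 0.19, adjusted p = 0.00107), and PLAT was called in the sorted cultures alone (1.21 ± 0.19, adjusted p = 0.00255).

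In SCs of the sorted SC and unsorted cultures 2 of 5 members were called at P2 against P0 (8.73% of 9913 genes). SERPINE2 went from 388 ± 194 to 103 ± 46.7 without overlap, lower in 6 of 6 donors (-1.91 ± 0.38, adjusted p = 0.00289). SERPINF1 rose in 5 of 6 donors (51.8 ± 5.51 to 165 ± 99.2, log2 fold change 1.68 ± 0.41, adjusted p = 0.00828). Split by culture, the SERPINF1 change was 0.64 ± 0.32 (adjusted p = 0.194) in the sorted SC cultures and 2.27 ± 0.15 (adjusted p = 8.31e-06) in the unsorted ones. FAP marker transcripts in SC pseudobulks rose over the same step, from a median of 1515 CPM at P0 to 6540 at P2 over all donors, and their part in the SERPINF1 change was not tested. PLAT was 0.89 ± 0.30 (adjusted p = 0.0391), and was called in the unsorted cultures alone (1.69 ± 0.28, adjusted p = 0.00221). Among the other plasmin system genes, SERPINF2 (alpha 2-antiplasmin) was called higher in FAPs at P2, at a mean level of 4.83 CPM over the 8 donors of P2, and ITGAV and ANXA2 were called higher in both types. F2R fell by 3.38 ± 0.52 in SCs and SERPINB2 by 4.95 ± 0.63 in FAPs. In all, 6 of 19 listed genes were higher and 1 lower in FAPs (36.8% called, beside 23.3% of all genes). In SCs 2 of 17 were higher and 1 lower (17.6%, beside 8.73%).

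After P2 no member was called in either type. Counts of called genes were also lower over the whole table: in FAPs 3.34% of genes for P5 against P2 and 2.02% for P8 against P5, and in SCs 0.195% and 0.345%. These fits did not pair the donors, and in SCs both counts were higher with donor as a block. By edgeR, 4066, 3297, 2069 and 1348 genes had an unadjusted p below 0.05 in these comparisons, and none of the 30 listed genes was called. Among the members PLAU in FAPs came nearest at P5, with 53.8 ± 7.17 at P2 and 80.0 ± 23.6 at P5, higher in 6 of 6 donors (0.67 ± 0.16, adjusted p = 0.0134). SERPINE2 in SCs was 114 ± 26.7 at P5 (n = 6) and 239 ± 96.3 at P8 (n = 4), higher in 4 of 4 donors (1.00 ± 0.26, adjusted p = 0.105), and was called with donor as a block (1.05 ± 0.21, adjusted p = 0.0336), by DESeq2 (1.02 ± 0.29, adjusted p = 0.0212), in the unsorted cultures alone (1.08 ± 0.17, adjusted p = 0.0142) and without donor 10 (1.18 ± 0.20, adjusted p = 0.0384).

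**Figure D4:**
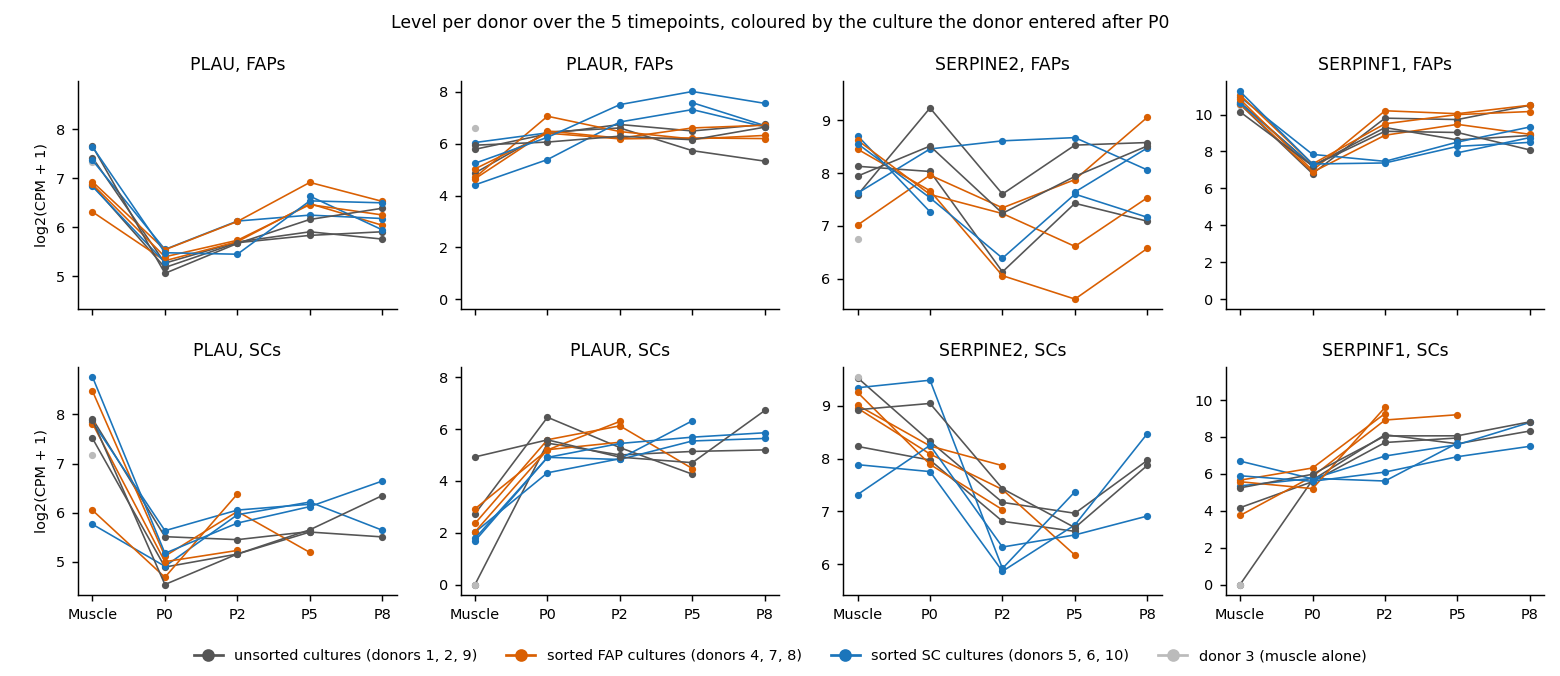
Level of 4 members, as log2(CPM + 1), in FAPs (top) and SCs (bottom) over the 5 timepoints, with 1 line per donor coloured by the culture the donor entered after P0. SERPINF1 in FAPs falls from 1132 to 2438 CPM in Muscle to 110 to 228 at P0, and at P5 the sorted SC cultures (blue, 243 to 364) lie below the sorted FAP cultures (orange, 708 to 1058) and above them for PLAUR.

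The form of the culture was compared within FAPs. FAPs made up 0.641% to 1.66% of the cells of the sorted SC cultures at P2, 2.04% to 57.0% at P5 and 82.7% to 96.7% at P8. At P5 the FAPs of sorted SC cultures differed from those of sorted FAP cultures in 2 of 5 members (15.9% of 11517 genes). PLAUR was 159 (donor 5), 191 (donor 6) and 258 (donor 10) CPM against 71.6 (donor 4), 96.6 (donor 7) and 73.7 (donor 8), without overlap (1.12 ± 0.19, adjusted p = 0.00293). Without donor 10 the difference was 0.90 ± 0.16 (adjusted p = 0.00546) and not called. SERPINF1 was 364, 243 and 309 in donors 5, 6 and 10 against 708, 1024 and 1058 in donors 4, 7 and 8, again without overlap (-1.79 ± 0.22, adjusted p = 7.76e-04). The FAP marker sums of the same pseudobulks were 6761, 8234 and 8581 against 32228, 41001 and 41226, and the SC marker sums were 14.5, 89.2 and 32.1 against 18.4, 20.5 and 16.8. Their part in the SERPINF1 difference was not tested. Among the listed genes, LRP1 (-1.07 ± 0.12), SERPING1 (-2.35 ± 0.25) and SERPINF2 (-3.40 ± 0.32) were lower and F2R (1.16 ± 0.32) was higher in the FAPs of SC cultures. Of the 17 listed genes tested, 2 were called higher and 3 lower, or 29.4% beside 15.9% of all genes.

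At P2 and P8 no member was called by edgeR in this comparison (0.259% of 11597 and 1.75% of 9911 genes, with 2663 and 1925 at an unadjusted p below 0.05). At P2, when 2 SC cultures had 10 FAPs or more, SERPINF1 was 176 (donor 5, 19 cells) and 165 (donor 10, 12 cells) against 471, 725 and 1182, and gave -2.43 ± 0.41 with an adjusted p of 0.0625. It was called by DESeq2 (-2.41 ± 0.45, adjusted p = 1.07e-05), without donor 4 (-2.70 ± 0.25) and without donor 8 (-2.02 ± 0.26). At P8 the values were 642, 431 and 360 against 487, 1148 and 1458, which overlapped (-1.16 ± 0.45, adjusted p = 0.235), and PLAUR was 99.4, 103 and 187 against 78.9, 104 and 72.4 (0.54 ± 0.27, adjusted p = 0.320). By DESeq2 SERPINF1 was called at P8 as well (-1.17 ± 0.38, adjusted p = 0.0352), as it was by edgeR without donor 4 (-1.51 ± 0.28). Sorted FAP and unsorted cultures did not differ in any member at P2, P5 or P8 (0.0170%, 1.04% and 0.0201% of genes called, with 1159, 3035 and 478 at an unadjusted p below 0.05), and PLAU at P5 came nearest, at 98.2 ± 18.4 against 61.8 ± 7.59 (0.61 ± 0.15, adjusted p = 0.0745).

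SERPINF1 levels in SCs did not overlap between culture forms at P2, and at P5 and P8 the sorted SC and unsorted cultures overlapped. At P2 the SCs of sorted SC cultures held 47.8 (donor 5), 124 (donor 6) and 67.3 (donor 10) CPM, those of unsorted cultures 277 (donor 1), 207 (donor 2) and 265 (donor 9), and those of sorted FAP cultures 482 (donor 4), 616 (donor 7) and 776 (donor 8). The 3 forms did not overlap at P2, with 3 donors each, and no test was run on them. How many of all genes separated in the same way was not counted. The values rest on 1125, 1085 and 1089 SCs in donors 5, 6 and 10, and on 223, 122 and 172 in donors 1, 2 and 9. Those of donors 4, 7 and 8 rest on 95, 50 and 18 SCs. At P5 the sorted SC cultures (202, 190 and 121 in donors 5, 6 and 10) overlapped the unsorted ones (197, 245 and 266 in donors 1, 2 and 9). The only sorted FAP culture with 10 SCs stood above both, at 589. At P8 the values were 440 and 179 (donors 6 and 10) against 319 and 450.1 (donors 1 and 9), which overlapped as well, and no sorted FAP culture had 10 SCs. The summed FAP markers in the SCs of P2 were 2273, 5296 and 2176 in the sorted SC cultures, 8419, 3974 and 6540 in the unsorted ones, and 6741, 7569 and 7485 in the sorted FAP cultures. Donors 5 and 10 were lowest on both measures, and the other donors did not keep the same order. The marker sum includes COL1A1, which in pooled SCs went from 139 CPM at P0 to 1353 at P2. The part of FAP transcripts in the SC values was not tested. SERPINE2 in the SCs of P2 was 59.4, 57.2 and 79.0 in sorted SC cultures, 143, 111 and 171 in unsorted cultures and 169, 130 and 232 in sorted FAP cultures.

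**Figure D5:**
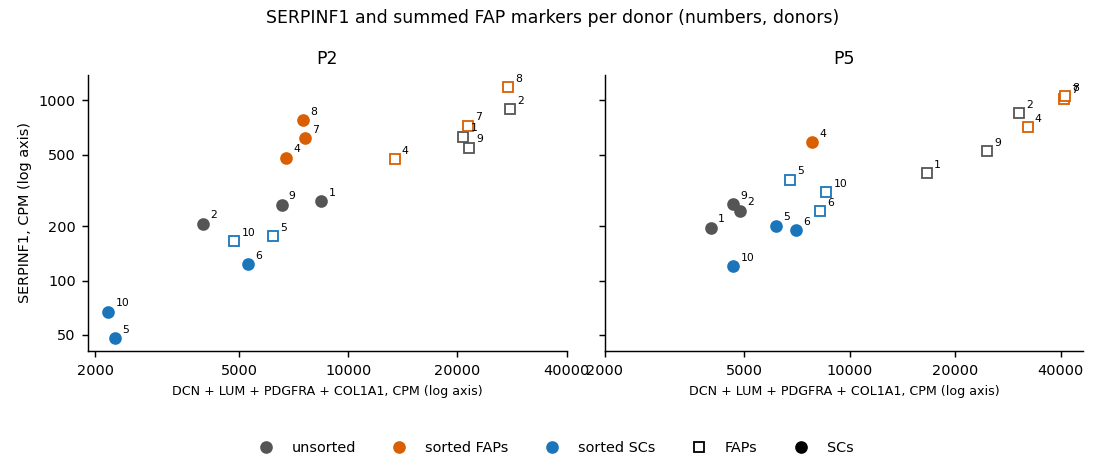
SERPINF1 against the summed FAP markers DCN, LUM, PDGFRA and COL1A1, both in CPM on log axes, for each donor's FAPs (open squares) and SCs (filled circles) at P2 and P5, coloured by culture form and numbered by donor. The FAPs of sorted SC cultures at P5 (blue squares, donors 5, 6 and 10) lie at 6761 to 8581 on the marker axis, near the SCs, and the FAPs of sorted FAP cultures at 32228 to 41226.

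Across the 19 groups of cell type and timepoint with pseudobulks of at least 3 donors, the members did not share a pattern. Pearson's r between them on log2(mean + 1) ran from -0.40 (PLAUR and SERPINE2) to 0.40 (PLAT and SERPINE2), and these groups share libraries and donors, so no p is given. Of 11090 genes compared, those nearest to SERPINF1 were LUM (r = 0.96), DCN (0.96) and PDGFRL (0.95), of which LUM and DCN encode small leucine-rich proteoglycans and were FAP markers here. Nearest to SERPINE2 were FSTL3 (0.92), HOXC6 (0.85) and IFT43 (0.84), and nearest to PLAT were PTPN14 (0.91), HOXD4 (0.89) and TMCO3 (0.89). PLAUR lay nearest to ARF3 (0.90), LAMTOR1 (0.89) and SOAT1 (0.88). PLAU had the loosest match, with ZFYVE1 (0.80), ZNF570 (0.80) and PROCA1 (0.78).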

How the data were processed

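The authors deposited raw UMI counts per gene and cell as 1 matrix per timepoint, with tables giving each cell's donor and cell type. The 8 samples in the labels correspond to 5 timepoint libraries, and repeat runs share a matrix. Per the submitters' processing notes, Cell Ranger 6.0.1 and the ARS-UCD1.2 build were used. Donors were assigned by genotype with demuxlet, and cell types by the authors' classifier. Every cell used was a genotype singlet in the authors' table. That call cannot see doublets of 1 donor, and no further doublet caller was run. The culture form of each donor came from the study's sample table.

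Counts were summed per donor, cell type and timepoint, and sums of at least 10 cells were kept. edgeR 4.0.16 (R 4.3.3) was used with TMM factors, filterByExpr and a robust quasi-likelihood F test, with Benjamini-Hochberg adjustment over all genes tested and a threshold of 0.05 with a log2 fold change beyond 1. Printed levels are plain CPM (UMIs over the pseudobulk total), and a SE is the log2 fold change divided by the root of F. The scripts were tested on simulated data. DESeq2 1.42.0, leaving out each donor, donor as a block, other filters and thinning were tried. Neighbouring types were compared by exact sign-flip tests within donors (SciPy 1.17.1). Shares of cells were also taken after thinning cells to 2000 UMIs, leaving out shallower cells. Intervals (95%) and the floor of 3 counts cover counting error only. Python 3.11.15, pandas 2.3.3, numpy 2.4.6 and matplotlib 3.10.9 were used.

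The 5 members were looked at in every comparison, and not all of them are named in each. The 30 other genes were named where a sentence turned on them, and for each member the 3 genes with the highest correlation were. Some listed genes are counted but not reported here by name. The members and lists were chosen with earlier results of these data known. Each cell type against all other cells was not tested, because types were assigned from the same values. Calves against adults was planned only for the case that the cell tables give an age class, which they do not, and it was not run. Donors pair the timepoints, since the same animals were sampled. The median correlation of same-donor deviations in FAPs was 0.0623 for Muscle and P0, 0.0242 for P0 and P2, 0.668 for P2 and P5 and 0.706 for P5 and P8.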

Additional observations from a re-analysis of the deposited data

Results flagged for a closer look

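A donor stood far from the others of its group, by Dixon's test, in 17 of the 95 groups of member, cell type and timepoint with 4 to 10 donors. Chance gives about 5% for normally distributed values only. The test was run on plain CPM, with donors at 0 in some groups, and each far donor was the highest of its group. The count therefore cannot be set against that 5%. In Muscle these were PLAU in LECs (donor 7, 30.7 CPM), PLAT in monocytes/macrophages (donor 10, 3.70), SERPINF1 in monocytes/macrophages (donor 5, 31.7) and in SMMCs (donor 5, 94.2). For PLAUR they were SCs (donor 9, 29.4), SMMCs (donor 3, 30.8) and VECs (donor 6, 58.4), and for SERPINE2 VECs (donor 7, 77.2). Most of these groups lay near 0 in the other donors.

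At P0 the far donors were donor 1 for SERPINE2 in FAPs (601), donor 5 for SERPINF1 in FAPs (228), donor 2 for PLAUR in SCs (86.9) and for PLAT in SMMCs (159.5), and donor 9 for SERPINE2 in VECs (124.6). In later passages they were donor 10 for PLAUR in FAPs at P2 (181, from 12 cells) and at P8 (187), donor 5 for SERPINE2 in FAPs at P2 (390.3, from 19 cells), and donor 4 for SERPINF1 in SCs at P5 (589, from 10 cells).

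The change from Muscle to P0 differed between cell types at an adjusted p below 0.05 for 7 differences, in log2 units, of which 6 were also beyond 1 log2 unit and PLAU between FAPs and SCs was not. FAPs minus SCs gave 0.85 for PLAU, -2.06 for PLAUR and -3.90 for SERPINF1. FAPs minus VECs gave -3.40 for PLAU, -3.56 for PLAUR, -2.59 for PLAT and -2.66 for SERPINF1. The levels of PLAUR in SCs and VECs of Muscle and of SERPINF1 in VECs were low, and SERPINF1 did not pass the filter in VECs alone.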

How the results depend on the processing

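The comparisons of each cell type with the other cells and of calves with adults were planned but not run, nor were their alternatives. No member changed direction past the threshold under any alternative run. Counts of members called moved as follows. Without a filter for low counts they went from 4 to 3 in FAPs, 3 to 4 in VECs, 0 to 1 in SMMCs, 1 to 4 in monocytes/macrophages, 3 to 5 in LECs (all P0 against Muscle) and 1 to 2 for SCs against FAPs in Muscle. With pseudobulks of at least 30 cells they were 4 in VECs, 2 in SMMCs and 2 for SCs against FAPs at P2. DESeq2 gave 4 in VECs, and 1 in place of 0 for P8 against P5 in SCs and for SC against FAP cultures at P2 and at P8. Leaving out 1 donor gave 0 to 3 in LECs, 0 to 2 for SCs against FAPs at P8, 0 to 1 for P8 against P5 in SCs, 0 to 1 for SC against FAP cultures at P2 and P8, and 1 to 2 at P5.

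With donor as a replicate block, the paired fit called 2 members for SCs against FAPs at P2, 1 at P8 and 1 for P8 against P5 in SCs, SERPINE2 in LECs was lost (adjusted p = 0.0586), and it changed no other member's call. Over all genes it called 246 in place of 21 for P5 against P2 in SCs and 102 in place of 29 for P8 against P5.

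Other alternatives were added after seeing the data. With pseudobulks thinned to 1 total, members called were 2 in FAPs and 0 in SCs, monocytes/macrophages and LECs, where the thinned tables held 4, 1, 1 and 0 tested members. Library totals without TMM factors gave 1 in SMMCs, 3 in place of 4 for SCs against FAPs at P5 and 1 at P8. Unsorted cultures alone gave 2 for SCs against FAPs at P2, 1 for P8 against P5 in SCs and 3 for P2 against P0 in SCs. Sorted cultures alone gave 1 for P2 against P0 in SCs, and in FAPs 2 as before, with PLAT called in place of SERPINE2. The cause of these moves was not tested beyond the number of members tested.

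Counts over all genes also moved by over 1.5 times. For P0 against Muscle they were 3997 in FAPs (6925 without a filter, 1635 thinned), 1789 in SCs (5286, 509), 2071 in VECs (5030, 1144), 1257 in SMMCs (4216, 506, and 2177 with at least 30 cells), 1003 in monocytes/macrophages (3389, 456) and 899 in LECs (1863, 327), and the differences went from 1754 to 417 and from 2208 to 992 when thinned. For SCs against FAPs, no filter gave 2984 in place of 887 in Muscle, 2052 for 1155 at P0, 2814 for 1605 at P2 and 3102 for 1855 at P5, and leaving out a donor at P8 gave 377 to 733 for 670. P5 against P2 gave 94 for 392 in sorted FAPs, 93 by DESeq2 for 21 in SCs, 367 in sorted and 43 in unsorted SCs. P8 against P5 gave 37 (sorted) and 7 (unsorted) for 221 in FAPs, and in SCs 108 by DESeq2, 9 with at least 30 cells, 19 (sorted), 46 (unsorted) and 10 to 28 without 1 donor, for 29. P2 against P0 in SCs gave 1473 without a filter and 1407 in unsorted cultures for 865. Sorted against unsorted cultures gave 77, 344 and 23 by DESeq2 at P2, P5 and P8 for 2, 121 and 2, and 0 to 10, 1 to 170 and 0 to 1 without 1 donor. SC against FAP cultures gave 692 by DESeq2, 205 without a filter and 0 to 945 without 1 donor for 30 at P2, and 414 and 1 to 523 for 173 at P8.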

Other observations

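Glial cells, too few for donor-level tests, were read from pooled counts. The 48 glial cells of P0 held PLAT at 213 CPM (95% exact Poisson interval 171 to 263) and PLAUR at 138 (105 to 179). In muscle, 1 of 12 glial cells held all 32 SERPINE2 UMIs of that type, a pooled level of 799. The 51 neutrophils of muscle held PLAU at 375 (264 to 516). The 45 myocytes held SERPINE2 at 138. These intervals cover counting error only.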
